A study of Homo sapiens with 6 samples.

Results

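The glycolysis and pentose phosphate genes described here are 39 genes of glucose and lactate transport, the glycolytic enzymes, the PFKFB and PDK enzyme families, the E1 subunits of pyruvate dehydrogenase and the pentose phosphate pathway. They were chosen by gene symbol, and all 39 symbols were found among the 58735 genes counted. Expression was measured by RNA-seq of total RNA from Jurkat, a cell line of human T cell leukaemia. The cells carried a lentiviral short hairpin RNA (shRNA) against SATB1 (shSATB1, 3 libraries) or a control shRNA (shCtrl, 3 libraries), and SATB1 is a nuclear protein of T cells that binds DNA and shapes chromatin loops. The study concerns SATB1 and genome folding, and the comparison addresses gene expression after knockdown. The culture medium held added pyruvate. A single hairpin vector against SATB1 and a single control vector were used, so effects of the hairpin and of lowered SATB1 cannot be told apart. Whether the replicates came from separate cultures or infections is not stated, and each p-value reflects only the spread among these libraries, which may be technical.

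Glycolysis breaks glucose down to pyruvate, which is either reduced to lactate by lactate dehydrogenase or carried into mitochondria and oxidised by pyruvate dehydrogenase. The pentose phosphate pathway branches off near the top of glycolysis and yields NADPH and the ribose used to build nucleotides. Dividing and leukaemic T cells are known to use glucose heavily and to release much of it as lactate, and many of these genes are known targets of the transcription factors MYC and HIF1A.

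Promoters are shown for the 3 members that fell most and for LDHA, whose promoter held the most matches to ACGTG. This word and GCGTG are core letters of the sites bound by hypoxia-inducible factors. The sequences are those of RefSeq on build GRCh38.p14, 250 bases before to 50 bases after the gene start, written 5′ to 3′ on the gene's strand. Capitals mark ACGTG and GCGTG on either strand. CACGTG, the E box bound by MYC, holds ACGTG on both strands.
TPI1, chr12:6867281-6867580, plus strand: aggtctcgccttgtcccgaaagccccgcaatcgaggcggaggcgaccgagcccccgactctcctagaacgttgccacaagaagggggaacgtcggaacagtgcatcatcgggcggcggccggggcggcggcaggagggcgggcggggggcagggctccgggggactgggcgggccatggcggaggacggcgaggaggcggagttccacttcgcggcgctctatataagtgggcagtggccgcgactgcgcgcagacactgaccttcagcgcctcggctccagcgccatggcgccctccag
TKT, chr3:53255973-53256272, minus strand: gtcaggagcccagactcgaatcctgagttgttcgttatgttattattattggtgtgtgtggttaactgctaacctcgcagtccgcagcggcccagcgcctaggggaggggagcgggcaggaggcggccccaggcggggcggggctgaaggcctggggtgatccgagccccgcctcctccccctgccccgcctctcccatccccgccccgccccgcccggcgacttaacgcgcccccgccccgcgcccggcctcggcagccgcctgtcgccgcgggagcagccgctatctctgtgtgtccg
ENO1, chr1:8878637-8878936, minus strand: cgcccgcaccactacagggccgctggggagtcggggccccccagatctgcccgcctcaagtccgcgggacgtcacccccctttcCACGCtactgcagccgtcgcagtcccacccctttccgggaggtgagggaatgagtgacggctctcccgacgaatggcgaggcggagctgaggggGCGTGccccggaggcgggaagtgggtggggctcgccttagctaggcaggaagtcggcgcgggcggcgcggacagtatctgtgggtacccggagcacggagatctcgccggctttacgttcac
LDHA, chr11:18394313-18394612, plus strand: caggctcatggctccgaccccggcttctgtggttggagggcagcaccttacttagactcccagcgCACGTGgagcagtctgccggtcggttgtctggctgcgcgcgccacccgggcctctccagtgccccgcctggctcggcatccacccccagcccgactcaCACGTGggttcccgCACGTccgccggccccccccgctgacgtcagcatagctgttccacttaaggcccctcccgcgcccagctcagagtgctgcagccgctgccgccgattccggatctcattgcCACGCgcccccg
TPI1 and TKT held neither word in this window, ENO1 held GCGTG at 2 places, and LDHA held 5 matches to ACGTG and 1 to GCGTG. Of the ACGTG matches in LDHA, 4 lie in 2 E boxes, each counted on both strands. Promoters were found for 36 of the 39 members. Of these, 23 (63.9%) held ACGTG or GCGTG, against 48.4% of all 27305 promoters of the same length, and 4 (11.1%) held CACGTG, against 7.43% of all promoters. Among the members that passed the test as lower 13 of 20 (65.0%) held ACGTG or GCGTG, and among the members that did not pass 8 of 13 (61.5%). These are matches of letters, not binding sites.

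SATB1 stood at 101.8, 100.2 and 104.1 CPM (normalised read count, scaled to library size) in the 3 shSATB1 libraries and at 279.1, 258.5 and 259.3 CPM in the 3 shCtrl libraries. The log2 fold change was -1.38 (SE 0.0611; adjusted p = 1.11e-08 by edgeR's quasi-likelihood test with Benjamini-Hochberg adjustment). Reads in annotated genes numbered 26626539 to 28143385 in shSATB1 and 27737353 to 28913623 in shCtrl. Reads outside annotated exons made up 10.9% to 11.7% in shSATB1 and 7.77% to 10.2% in shCtrl, without overlap. All 10 T cell markers searched were detected and tested, and their summed level was 2742 to 2948 CPM in shSATB1 and 2924 to 3395 CPM in shCtrl, with overlap. Of these markers 5 were called lower and 1 higher, with a median log2 fold change of -0.20. Of the 18 markers of B, myeloid, erythroid, epithelial and fibroblast cells searched, 2 averaged over 1 CPM. CD79A, a B cell receptor subunit, averaged 50.4 ± 4.61 CPM in shSATB1 and 60.5 ± 5.03 CPM in shCtrl, and COL1A1, a collagen gene, 20.8 ± 0.694 CPM in shSATB1 and 15.5 ± 1.52 CPM in shCtrl (SD, n = 3 each). HBA1 and EPCAM were at 0 in all 6 libraries. The part of these markers in the results was not tested.

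All 39 members passed the filter on low counts. Of these, edgeR called 20 lower and 4 higher in shSATB1 (adjusted p under 0.05), and 15 did not pass. In either direction 30.9% of all tested genes were called. Over all 17520 tested genes 16.6% were called lower and 14.3% higher, against 51.3% of the members called lower and 10.3% called higher. The rises became 2 without shCtrl replicate 3 and 2 without shSATB1 replicate 1, and the falls numbered 16 to 21 whichever library was left out. The groups did not overlap for 22 members that were lower and 7 that were higher, against 23.4% and 21.7% of all tested genes. The median log2 fold change of the members was -0.25, against 0.01 for all tested genes. Most changes were small: called falls lay between 1.19-fold and 1.59-fold with a median of 1.32-fold. Of the members, 4 changed by 1.5-fold or more (SLC2A3, TPI1, TKT and TIGAR), all of them called. LDHB, called lower, and TIGAR, called higher, kept their calls in 5 and 8 of 16 other settings. Their counts, like those of ALDOA, are limited by exons shared with another gene, as described below. The counts and medians of members include these genes. Tested against a change of 1.2-fold instead of none, 8 members were lower and 2 higher, against 3.98% and 4.33% of all tested genes. With an offset for gene length and GC content, 21 members were called lower and 5 higher, against 3503 lower (20%) and 2384 higher (13.6%) of all 17520 tested genes. In bulk RNA, fewer cells of a kind and less RNA per cell cannot be told apart.

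By level, the members divided as follows. Of the 14 members with a mean of 100 CPM or more, 11 were called lower and 0 higher by edgeR, and all 14 fitted log2 fold changes were below 0 with a median of -0.39. With reads outside annotated exons as a covariate in the fit, PGAM1 (0.03) and ENO2 (0.0056) of these turned above 0. Among all 2528 tested genes at that level, 36.0% were called lower and 16.4% higher, and the median was -0.08. Of the 25 members under 100 CPM, 9 were called lower and 4 higher. Over all 17520 tested genes of any level, 16.6% were called lower and 14.3% higher. The 4 rises among these 25 members were thus near the share of all genes. Shares for all tested genes under 100 CPM alone were not computed. The plot of fold change against level shows how the members divide by level.

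**Figure D1:**
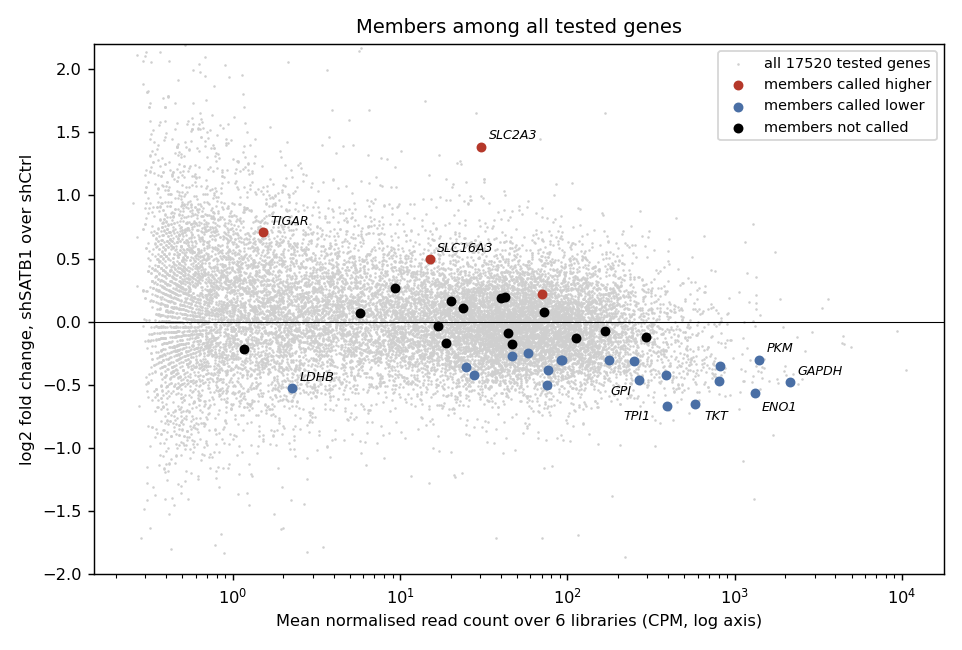
Fold change of each tested gene (log2, shSATB1 over shCtrl) against its mean normalised read count over 6 libraries (CPM, log axis); grey points are all 17520 tested genes, of which 15 lie outside the plotted range, and coloured points are the 39 members. The members above 100 CPM all sit below 0, where PGAM1 and ENO2 turn above 0 with the covariate, and SLC2A3 stands highest among the members at 1.39.

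Summed over all 39 members, the libraries held 8486.5, 9007 and 8506 CPM in shSATB1 and 10920.0, 12165 and 11305 CPM in shCtrl. The groups did not overlap, and the shSATB1 mean was 0.756 of the shCtrl mean. Most of the sum came from the 14 members of 100 CPM or more, with means of 7744 CPM in shSATB1 and 10476 CPM in shCtrl. The other 25 members summed to 922 ± 11.7 CPM in shSATB1 and 988 ± 14.7 CPM in shCtrl (SD, n = 3 each). For the sum over all 39 members, an exact two-sided permutation test over the 6 libraries gave p = 0.1, the smallest that 3 against 3 can give. The same value was reached by 29 single members. Within shCtrl, replicate 2 had the highest sum and the lowest share of reads outside annotated exons (7.77%), and it was the highest shCtrl library for 21 of 39 members. Within shSATB1, replicate 2 likewise had the highest sum and the lowest such share (10.9%) and was highest for 25 members.
With that share as a covariate in the fit, 12 of the 20 falls and 1 of the 4 rises were still called, ALDOC was newly called higher, and 7.20% of all tested genes were called lower and 4.90% higher. The share does not overlap between the groups, so its part and that of the knockdown cannot be told apart.

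Glucose and lactate transporters moved in both directions. Glucose transporters carry glucose across membranes, and monocarboxylate transporters carry lactate and pyruvate. Of 6 transporter genes 2 were called higher (33.3%) and 1 lower (16.7%), with a median log2 fold change of 0.19. Over all tested genes the shares were 14.3% and 16.6%, so the share called lower was near that of all genes.
SLC2A3 (ENSG00000059804, chromosome 12, 7919230 to 7936275, hg38), which encodes the high-affinity glucose transporter GLUT3, had 43.7, 42.7 and 46.1 CPM in shSATB1 and 15.97, 18.0 and 16.7 CPM in shCtrl. Every shSATB1 library lay above every shCtrl library. It rose 2.61-fold (95% interval 2.33 to 2.93, edgeR adjusted p = 1.22e-07), and the call held in all 16 other settings run.
SLC2A1, the widely expressed transporter GLUT1, had 42.3, 44.8 and 40.0 CPM in shSATB1 and 51.7, 47.9 and 54.2 CPM in shCtrl. The groups did not overlap, and the level fell by 0.28 on the log2 scale (edgeR adjusted p = 0.0105; 0.000663 to 0.600 over the other settings). Leaving out shCtrl replicate 3 gave an adjusted p of 0.0705, leaving out shSATB1 replicate 1 gave 0.0533 and leaving out shSATB1 replicate 3 gave 0.0772, so none of these kept the call.
SLC16A3, the lactate exporter MCT4, had 17.0, 18.0 and 17.9 CPM in shSATB1 and 13.4, 12.4 and 11.7 CPM in shCtrl, again without overlap. It rose 1.41-fold (95% interval 1.23 to 1.61, edgeR adjusted p = 0.00104; 6.49e-05 to 0.0561 over the other settings, highest with the covariate, where the call was lost). SLC16A1, the monocarboxylate transporter MCT1, averaged 43.4 ± 1.63 CPM in shSATB1 and 49.2 ± 2.80 CPM in shCtrl and did not pass (SD, n = 3 each; adjusted p = 0.0629), though it was called lower without shCtrl replicate 2 (0.0270) and with an offset for gene length and GC content (0.0342). The hexose transporter genes SLC2A6 and SLC2A8 did not pass either (adjusted p = 0.312 and 0.145).

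The make-up of both transporter pairs did not overlap between the groups. Per kilobase of exon, SLC2A3 made up 44.2%, 42.2% and 46.9% of the summed SLC2A1 and SLC2A3 reads in shSATB1 and 19.2%, 22.4% and 19.1% in shCtrl, a difference of 24.2 percentage points. SLC16A1 made up 80.9%, 81.0% and 80.1% of the SLC16A1 and SLC16A3 reads in shSATB1 and 86.9%, 86.5% and 87.4% in shCtrl, a difference of -6.27 percentage points. Exact two-sided permutation tests gave p = 0.1 for each, the smallest possible, or 0.150 adjusted over the 9 families compared. These families include LDHA with LDHB and ALDOA with ALDOC, whose shares are limited by exons that LDHB and ALDOA share with other genes.

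The enzymes of upper glycolysis, which prime glucose with phosphate and split it, were lower or did not pass. Of 9 genes 5 (55.6%) were called lower and 0 higher by edgeR, against 16.6% and 14.3% of all tested genes. Their median log2 fold change was -0.25.
TPI1 (ENSG00000111669, chromosome 12, 6867119 to 6870948), which interconverts the triose phosphates, had 300.7, 318.3 and 293.5 CPM in shSATB1 and 447.7, 534.8 and 466.6 CPM in shCtrl. It fell to 63.0% of the shCtrl level, the largest fall among the members, with a log2 fold change of -0.67 (SE 0.0731, edgeR adjusted p = 2.59e-05).
GPI, which isomerises glucose phosphate to fructose phosphate, had 221.1, 237.4 and 220.4 CPM in shSATB1 and 297.3, 324.7 and 313.9 CPM in shCtrl, a log2 fold change of -0.46 (SE 0.0625, edgeR adjusted p = 0.000133). Both genes kept the call in all 16 other settings.
PFKP, the platelet-type subunit of phosphofructokinase, the committed step of glycolysis, had 222.7, 228.1 and 222.5 CPM in shSATB1 and 285.4, 274.4 and 274.8 CPM in shCtrl (log2 fold change -0.31, edgeR adjusted p = 0.00123). The liver-type subunit gene PFKL overlapped between groups, with 100.4, 114.8 and 106.9 CPM in shSATB1 and 122.1, 111.7 and 119.1 CPM in shCtrl, and did not pass (adjusted p = 0.158), nor did the muscle-type gene PFKM (adjusted p = 0.752).
The hexokinase genes HK1 and HK2, whose products trap glucose in the cell, both fell. HK1 had 81.7, 87.0 and 77.9 CPM in shSATB1 and 102.2, 104.5 and 97.97 CPM in shCtrl (log2 fold change -0.31, edgeR adjusted p = 0.00271; 0.000197 to 0.404 over the other settings), and its call was lost with the covariate (adjusted p = 0.0908). HK2 had 54.2, 53.4 and 51.5 CPM in shSATB1 and 67.4, 60.8 and 61.4 CPM in shCtrl (log2 fold change -0.25, edgeR adjusted p = 0.0104; 0.00168 to 0.745 over the other settings), and its call was lost without shSATB1 replicate 3 (adjusted p = 0.0697). ALDOC, an aldolase gene, averaged 42.7 ± 1.85 CPM in shSATB1 and 37.5 ± 3.40 CPM in shCtrl and did not pass (SD, n = 3 each; adjusted p = 0.0829). Without shCtrl replicate 2, ALDOC was called higher (adjusted p = 0.00961) and PFKL lower (0.0427). With an offset for gene length and GC content, ALDOC was likewise called higher (adjusted p = 0.00940) and PFKL lower (0.00276).

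ALDOA, the aldolase gene of most tissues, was counted at 0.828 to 1.27 CPM in shSATB1 and 1.07 to 1.36 CPM in shCtrl, and these values are not a measure of its level. In GENCODE 29, 93.8% of its coding bases are shared on the same strand with another annotated gene, AC093512.2 (chromosome 16, 30053090 to 30070420), which itself had 1.80 to 2.52 CPM in shSATB1 and 1.53 to 2.22 CPM in shCtrl. Reads over both genes are counted for neither in HTSeq's default handling; the setting used is not given in the sources used here. LDHB and TIGAR share 93.5% and 96.1% of their coding bases with another gene in the same way, and their counts carry the same limit. No other member shares more than 10.3% (GPI). On the opposite strand, PDK2 shares 38.6%, RPE 23.8% and PDHA1 21.3% of exon bases with another gene, and without strand such reads cannot be told apart.

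**Figure D2:**
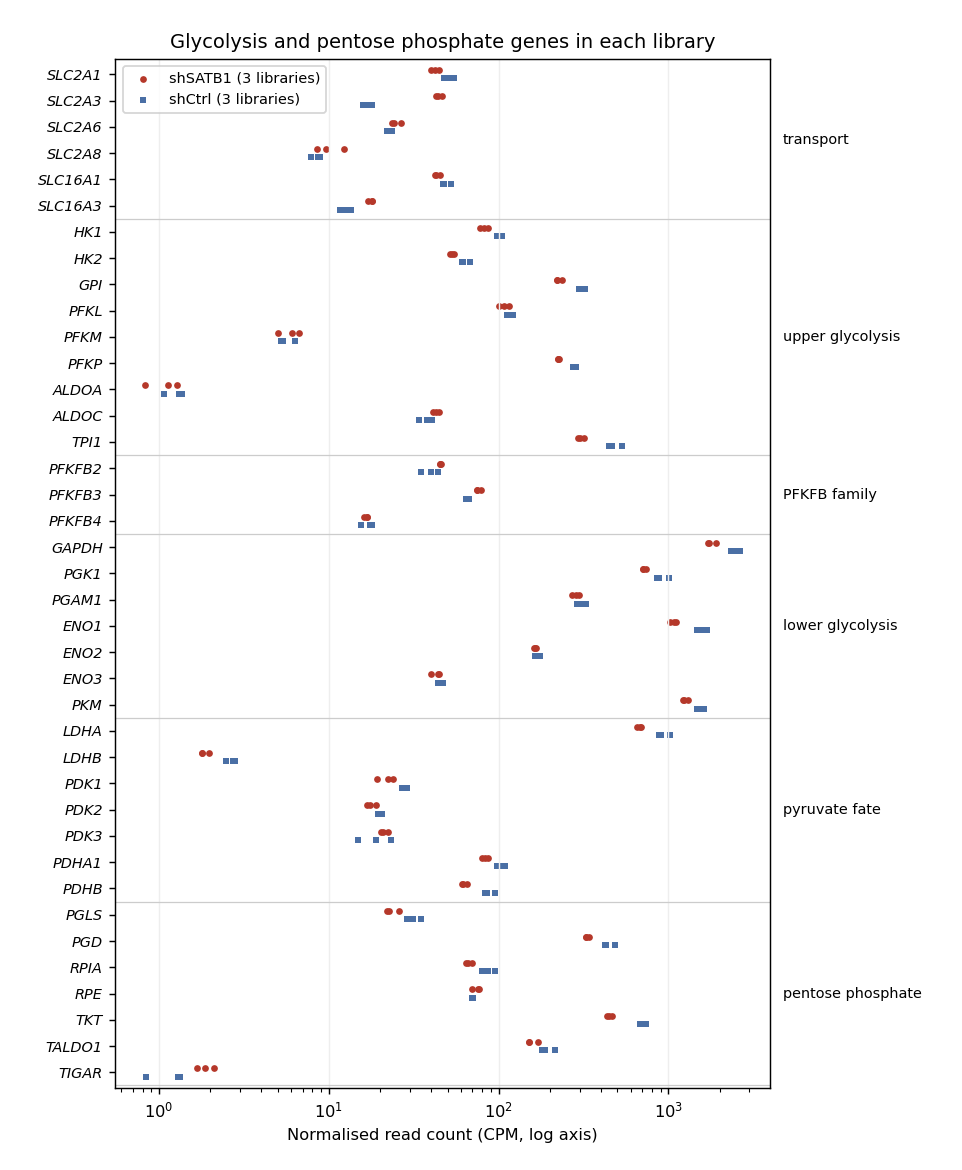
Normalised read count (CPM, log axis) of each of the 39 members in each library, with red circles for the 3 shSATB1 libraries and blue squares for the 3 shCtrl libraries, ordered by role. In GPI, TPI1, GAPDH, ENO1, LDHA, PGD and TKT all shSATB1 libraries lie below all shCtrl libraries, and in SLC2A3 all lie above.

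The PFKFB family makes and breaks the allosteric activator of phosphofructokinase. Of its 3 genes 1 (33.3%) was called higher and 0 lower, against 14.3% and 16.6% of all tested genes. PFKFB3, the isozyme that most favours making the activator, had 78.4, 74.7 and 74.7 CPM in shSATB1 and 66.7, 64.2 and 64.8 CPM in shCtrl. It rose 1.16-fold (edgeR adjusted p = 0.0139; 0.00559 to 0.946 over the other settings). It was not called when shCtrl replicate 3 (adjusted p = 0.0757) or shSATB1 replicate 1 (0.0760) was left out, or with the covariate (0.306). PFKFB2 averaged 45.2 ± 0.350 CPM in shSATB1 and 39.5 ± 4.38 CPM in shCtrl and PFKFB4 16.6 ± 0.315 CPM in shSATB1 and 17.0 ± 1.24 CPM in shCtrl, and neither passed (SD, n = 3 each; adjusted p = 0.0807 and 0.801). PFKFB2 was called higher without shCtrl replicate 1 (adjusted p = 0.00734). With the covariate its log2 fold change turned to -0.0606 and was not called (adjusted p = 0.794).

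The enzymes of lower glycolysis, which yield ATP, were lower or did not pass. Of 7 genes 4 (57.1%) were called lower and 0 higher by edgeR, against 16.6% and 14.3% of all tested genes. Their median log2 fold change was -0.30. Summed, they averaged 5312 ± 210.5 CPM in shSATB1 and 7047 ± 434 CPM in shCtrl (SD, n = 3 each). All of them but ENO3 averaged 100 CPM or more. Among all 2528 tested genes at that level, 36.0% were called lower and 16.4% higher.
GAPDH (ENSG00000111640, chromosome 12, 6533927 to 6538374), the glyceraldehyde phosphate dehydrogenase gene often used as a reference in expression assays, had 1733, 1914 and 1706 CPM in shSATB1 and 2342, 2636 and 2489 CPM in shCtrl. It fell to 71.7% of the shCtrl level (log2 fold change -0.48, SE 0.0696, edgeR adjusted p = 0.000218). GAPDH has 62 named pseudogenes in the annotation, whose summed reads came to 0.223% of its own in shSATB1 and 0.214% in shCtrl.
ENO1 (ENSG00000074800, chromosome 1, 8861000 to 8879250), the enolase of most tissues, had 1020.1, 1105 and 1072 CPM in shSATB1 and 1473, 1699 and 1547 CPM in shCtrl. Its log2 fold change was -0.56 (SE 0.0685, edgeR adjusted p = 6.11e-05), and its call, like that of GAPDH, held in all 16 other settings.
The other enolase genes did not pass. ENO2, the neuronal-type enolase, had 161.9, 165.0 and 163.6 CPM in shSATB1 and 163.9, 175.1 and 176.2 CPM in shCtrl, with overlap (adjusted p = 0.394), and ENO3, the muscle-type enolase, did not pass (adjusted p = 0.375). Per kilobase of exon, ENO1 made up 80.1%, 81.1% and 81.0% of enolase reads in shSATB1 and 85.1%, 86.1% and 85.1% in shCtrl, without overlap (exact permutation p = 0.1, 0.150 adjusted over 9 families).
PGK1, the first enzyme of the pathway to make ATP, had 710.8, 737.8 and 706.5 CPM in shSATB1 and 862.2, 1003 and 881.3 CPM in shCtrl (log2 fold change -0.35, edgeR adjusted p = 0.00182; 6.11e-07 to 0.214 over the other settings). PKM, which makes pyruvate, had 1229, 1303 and 1227 CPM in shSATB1 and 1480.1, 1626 and 1526 CPM in shCtrl (log2 fold change -0.30, edgeR adjusted p = 0.00279; 1.35e-05 to 0.426 over the other settings). Both calls were lost with the covariate (adjusted p = 0.209 and 0.117). PGAM1, a phosphoglycerate mutase, had 272.2, 284.1 and 295.5 CPM in shSATB1 and 289.3, 327.2 and 309.6 CPM in shCtrl, with overlap, and did not pass (adjusted p = 0.179), though it was called lower without shCtrl replicate 1 (0.0441).

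**Figure D3:**
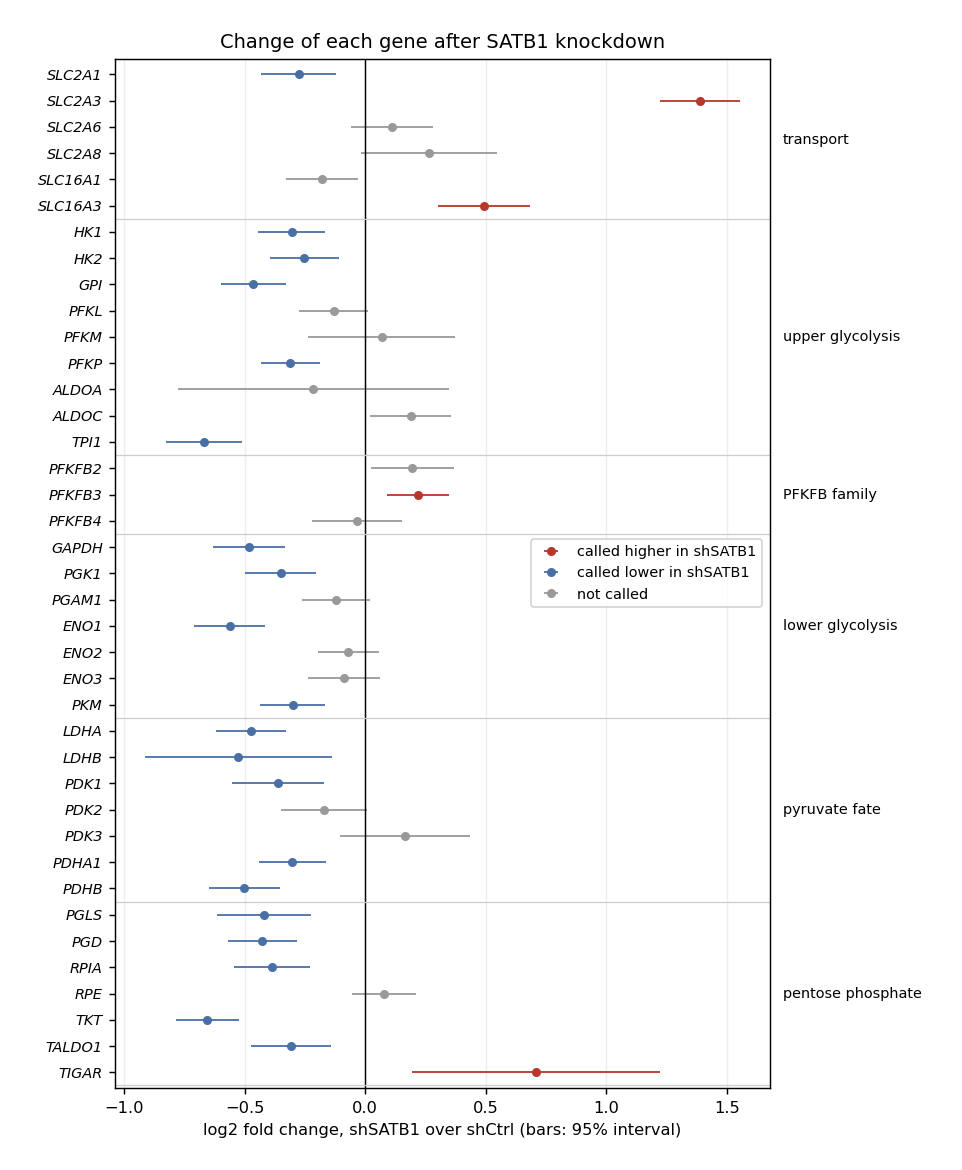
Fitted log2 fold change of each member (shSATB1 over shCtrl) with its 95% interval, coloured by the edgeR call at an adjusted p under 0.05 and ordered by role. The 7 genes of lower glycolysis all lie below 0, from -0.56 (ENO1) to -0.07 (ENO2), where PGAM1, ENO2 and ENO3 turn above 0 with the covariate, and SLC2A3 lies at 1.39.

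Of the 7 genes that decide the fate of pyruvate, 5 (71.4%) were called lower and 0 higher by edgeR. Over all tested genes the shares were 16.6% and 14.3%. The median log2 fold change of the 7 genes was -0.36.
LDHA, the lactate dehydrogenase subunit that favours making lactate, had 679.2, 685.5 and 656.3 CPM in shSATB1 and 886.2, 1018 and 901.2 CPM in shCtrl. It fell to 72.0% of the shCtrl level (log2 fold change -0.47, SE 0.0673, edgeR adjusted p = 0.000189), and the call held in all 16 other settings. LDHB, the other main subunit, was counted at 1.97, 1.80 and 1.79 CPM in shSATB1 and 2.80, 2.73 and 2.47 CPM in shCtrl (edgeR adjusted p = 0.0396; 0.0397 to 0.336 over the other settings). Its call was lost whichever library was left out, with adjusted p of 0.0649 (without shCtrl replicate 3) to 0.118 (without shSATB1 replicate 3). It was also lost with the length and GC offset (0.0503) and with the covariate (0.336), and held in 5 of the 16 other settings.
Both E1 subunit genes of pyruvate dehydrogenase, which commits pyruvate to oxidation, were lower as well. PDHB had 60.8, 61.2 and 64.7 CPM in shSATB1 and 85.9, 95.4 and 83.0 CPM in shCtrl (log2 fold change -0.50, edgeR adjusted p = 0.000144, called in all 16 other settings). PDHA1 had 83.6, 86.5 and 79.99 CPM in shSATB1 and 100.7, 109.7 and 97.8 CPM in shCtrl (log2 fold change -0.30, edgeR adjusted p = 0.00338; 0.000232 to 0.428 over the other settings), and was not called with the covariate (adjusted p = 0.280).
Among the kinases that switch pyruvate dehydrogenase off, PDK1 had 24.0, 19.2 and 22.3 CPM in shSATB1 and 28.1, 27.1 and 28.8 CPM in shCtrl (log2 fold change -0.36, edgeR adjusted p = 0.00724; 0.000152 to 0.259 over the other settings), without overlap. PDK2 and PDK3 did not pass (adjusted p = 0.141 and 0.349). PDK3 ranged from 20.4 to 22.3 CPM in shSATB1 and from 14.8 to 23.1 CPM in shCtrl, and without shCtrl replicate 1, its highest library, it was called higher (adjusted p = 0.0106). With the covariate its log2 fold change turned to -0.35 and was not called (adjusted p = 0.103). Per kilobase, PDK3 made up 46.2%, 47.2% and 49.8% of the reads of the 3 kinases in shSATB1 and 46.0%, 35.9% and 40.0% in shCtrl.

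**Figure D4:**
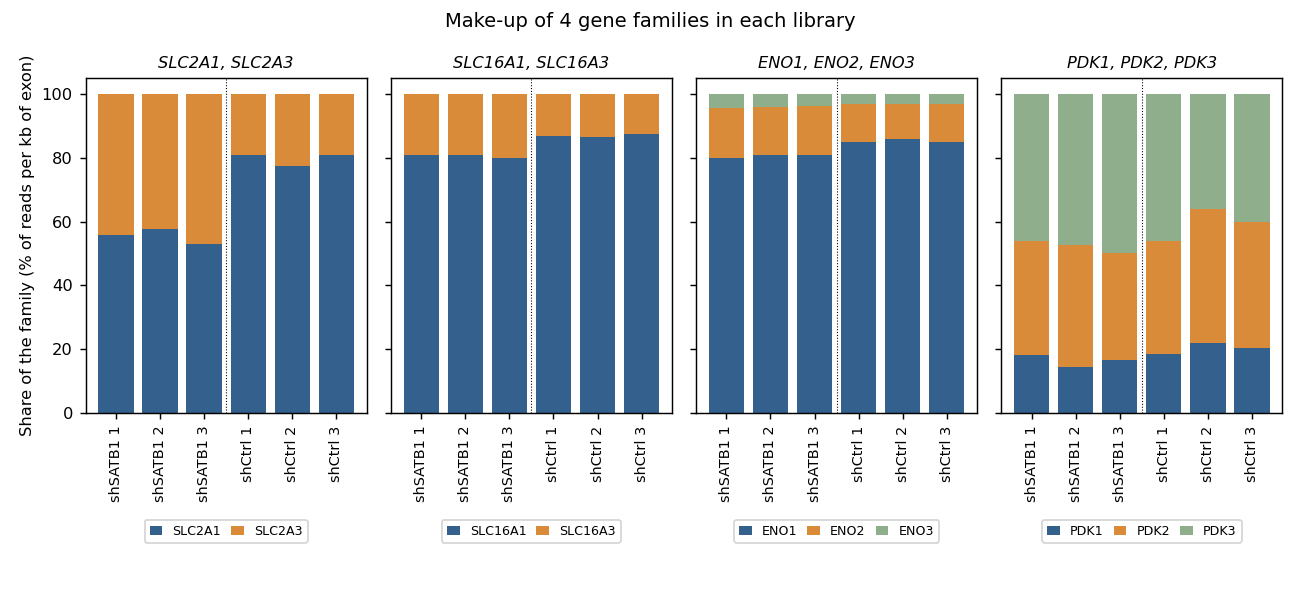
Share of each gene in the summed reads per kilobase of exon of its family (percent), as stacked bars for the 3 shSATB1 and the 3 shCtrl libraries. SLC2A3 takes 42.2% to 46.9% of its pair in shSATB1 and 19.1% to 22.4% in shCtrl, while ENO1 takes 80.1% to 81.1% in shSATB1 and 85.1% to 86.1% in shCtrl.

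Of 7 pentose phosphate genes, 5 (71.4%) were called lower and 1 (14.3%) higher by edgeR, against 16.6% and 14.3% of all tested genes. Their median log2 fold change was -0.39.
TKT (ENSG00000163931, chromosome 3, 53224707 to 53256052), the transketolase that links the pathway back to glycolysis, had 434.9, 467.4 and 448.0 CPM in shSATB1 and 683.5, 733.5 and 708.2 CPM in shCtrl. It fell to 63.5% of the shCtrl level, with a log2 fold change of -0.65 (SE 0.0613, edgeR adjusted p = 6.67e-06).
PGD, the phosphogluconate dehydrogenase that makes NADPH, had 327.4, 341.8 and 326.1 CPM in shSATB1 and 423.6, 482.9 and 430.6 CPM in shCtrl (log2 fold change -0.43, edgeR adjusted p = 0.000369). Calls of TKT and PGD held in all 16 other settings.
PGLS, the lactonase before it, had 22.1, 26.0 and 22.7 CPM in shSATB1 and 28.7, 34.7 and 31.2 CPM in shCtrl (edgeR adjusted p = 0.00348; 2.15e-05 to 0.631 over the other settings). RPIA, the isomerase that makes ribose phosphate, had 64.3, 65.8 and 69.9 CPM in shSATB1 and 79.6, 94.9 and 86.8 CPM in shCtrl (edgeR adjusted p = 0.00138; 1.89e-06 to 0.240 over the other settings). TALDO1, transaldolase, had 151.7, 170.0 and 150.0 CPM in shSATB1 and 179.4, 215.9 and 188.5 CPM in shCtrl (edgeR adjusted p = 0.00836; 6.98e-05 to 0.940 over the other settings). In all 3 genes the groups did not overlap, and none was called with the covariate (adjusted p = 0.631, 0.240 and 0.940). TALDO1 also lost it without shSATB1 replicate 1 (adjusted p = 0.0590) or 3 (0.0672).
RPE, the epimerase of the pathway, averaged 74.0 ± 3.57 CPM in shSATB1 and 70.1 ± 0.720 CPM in shCtrl and did not pass (SD, n = 3 each; adjusted p = 0.365). TIGAR, a p53-induced phosphatase that steers glucose into the pathway, was counted at 1.67, 1.87 and 2.10 CPM in shSATB1 and 1.29, 0.836 and 1.33 CPM in shCtrl. It was called higher (edgeR adjusted p = 0.0380; 0.0250 to 0.837 over the other settings), from 46 to 61 reads a library in shSATB1 and 23 to 36 in shCtrl. That call was lost with each library but shCtrl replicate 1 left out, with adjusted p of 0.0558 (without shCtrl replicate 3) to 0.139 (without shSATB1 replicate 3). It was also lost with the covariate (0.837), and held in 8 of the 16 other settings.

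ALDOA, LDHB and TIGAR share most of their coding bases with another gene, so their low counts do not place them in an order of abundance. Among the other members GAPDH was the most abundant per kilobase of exon. It stood at 598.6 ± 37.9 CPM per kilobase in shSATB1 and 834.9 ± 49.4 in shCtrl (SD, n = 3 each). ENO1 followed at 202.0 ± 8.11 in shSATB1 and 298.1 ± 21.8 in shCtrl. PKM, PGK1, TPI1, PGD, PGAM1 and LDHA came next, between 146.2 (PKM) and 108.5 (LDHA) CPM per kilobase in shSATB1 and between 180.1 (PKM) and 120.2 (PGAM1) in shCtrl. In shSATB1 the neighbours TPI1, PGD, PGAM1 and LDHA lay within 1 SD of the next. SLC2A3 moved furthest in rank among the members, at place 27 in shSATB1 and place 32 in shCtrl. All tested genes were divided by exon length into 5 classes of equal number, and medians were then taken over genes of 8 CPM or more. The shortest class held 0 members at that level. In the next class (1810 to 3332 bases) the median log2 fold change was -0.40 for 8 members and -0.18 for all genes. In the middle class (3332 to 5031 bases) the 10 members stood at -0.08 and all genes at -0.09. The class of 5032 to 7425 bases gave -0.22 for 10 members and 0.0035 for all genes, and the longest (7425 bases or more) -0.30 for 7 members and 0.10 for all genes.

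Neighbouring steps of sugar metabolism were called in both directions. Of 38 tested genes of other sugar and glycogen steps, 12 were called lower (31.6%) and 8 higher (21.1%). Over all tested genes the shares were 16.6% and 14.3%. The median log2 fold change of the 38 genes was -0.11. PRPS2, which activates ribose phosphate for nucleotide synthesis, averaged 51.0 ± 1.78 CPM in shSATB1 and 97.7 ± 6.10 CPM in shCtrl (edgeR adjusted p = 8.65e-07), and HKDC1, a hexokinase-like gene, 3.16 ± 0.106 CPM in shSATB1 and 6.06 ± 0.422 CPM in shCtrl (edgeR adjusted p = 0.000215). H6PD, which starts a pentose phosphate route inside the endoplasmic reticulum, rose to 106.9 ± 4.22 CPM in shSATB1, against 69.8 ± 7.34 CPM in shCtrl (edgeR adjusted p = 7.11e-05). PGM2L1, which makes glucose bisphosphate, rose to 94.5 ± 4.94 CPM in shSATB1, against 61.8 ± 5.71 CPM in shCtrl (edgeR adjusted p = 6.07e-05; SD, n = 3 each throughout). The 8 rises became 3 without shCtrl replicate 3, 4 without shSATB1 replicate 1 and 5 without shSATB1 replicate 3.

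Of 28 genes of pyruvate entry and the citrate cycle, 13 were called lower (46.4%) and 1 higher (3.57%). Over all tested genes the shares were 16.6% and 14.3%. The median log2 fold change of the 28 genes was -0.18. MPC2, a subunit of the mitochondrial pyruvate carrier, averaged 26.3 ± 0.5003 CPM in shSATB1 and 37.6 ± 5.98 CPM in shCtrl (edgeR adjusted p = 0.00151), and SDHB, a subunit of succinate dehydrogenase, 71.2 ± 3.82 CPM in shSATB1 and 97.3 ± 11.7 CPM in shCtrl (edgeR adjusted p = 0.00115). The phosphatases that switch pyruvate dehydrogenase back on moved apart. PDP1 rose to 43.4 ± 3.95 CPM in shSATB1, against 32.4 ± 1.87 CPM in shCtrl (edgeR adjusted p = 0.00160), and PDP2 fell to 65.8 ± 2.22 CPM in shSATB1, against 89.4 ± 2.74 CPM in shCtrl (edgeR adjusted p = 0.000162; SD, n = 3 each throughout). In this list 8 genes were called lower without shSATB1 replicate 3 and 4 with the covariate. Of the 13 falls only those of PDP2 (adjusted p = 2.8e-05), CS (0.0048) and IDH3A (0.0028) were still called with the covariate. The 4 thus include a newly called gene. MPC2 (adjusted p = 0.544) and SDHB (0.445) were not called there, nor was the rise of PDP1 (0.239).

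Among 18 regulators of glycolytic genes, 5 were called higher and 5 lower (27.8% each), against 14.3% and 16.6% of all tested genes. Their median log2 fold change was 0.10. EPAS1, a hypoxia-inducible factor subunit, averaged 21.8 ± 1.58 CPM in shSATB1 and 6.47 ± 0.930 CPM in shCtrl (edgeR adjusted p = 3.44e-07). MYC, a transcription factor that drives growth and glycolytic genes, averaged 309.0 ± 9.59 CPM in shSATB1 and 501.7 ± 14.2 CPM in shCtrl (edgeR adjusted p = 3.23e-06). HIF1A averaged 114.4 ± 2.53 CPM in shSATB1 and 95.4 ± 1.31 CPM in shCtrl and was called higher (edgeR adjusted p = 0.00383). Its call held in 14 of the 16 other settings. That call was lost under the 1.2-fold null (adjusted p = 0.683) and with the covariate (0.05004). ARRDC4 and TXNIP, arrestin-like genes that restrain glucose uptake, averaged 8.91 ± 1.06 and 1.51 ± 0.213 CPM in shSATB1 and 5.08 ± 0.911 and 0.815 ± 0.333 CPM in shCtrl, and both were called higher (edgeR adjusted p = 0.000939 and 0.0427; SD, n = 3 each throughout). ARRDC4 was called in all 16 other settings and TXNIP, from 36 to 46 reads a library in shSATB1 and 12 to 28 in shCtrl, in 9 of 16 (adjusted p = 0.0116 to 0.147). The TXNIP call was lost without shCtrl replicate 1 (0.126) or 3 (0.0566) and without shSATB1 replicate 1 (0.133), 2 (0.0631) or 3 (0.125). The 5 falls became 2 without shCtrl replicate 3, 3 without shSATB1 replicate 1, 3 without shSATB1 replicate 2 and 2 without shSATB1 replicate 3. With the covariate the falls of MLX (adjusted p = 0.706), STK11 (0.848) and EGLN3 (0.245) and the rise of TXNIP (0.0791) were not called. The calls of EPAS1, MYC, ARRDC4, PRKAA1 and AKT1 held there. Whether any regulator has a part in the members' changes was not tested.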

How the data were processed

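RNA-seq of Jurkat cells gave 1 table of raw read counts per gene for each of 6 libraries, as the authors deposited them. Per the submitters' processing notes, Trim Galore, STAR and HTSeq were used with build hg38; versions, annotation release and strand setting were not given in the sources used here. Symbols, exon lengths and gene overlaps came from GENCODE 29. The 5 closing lines of each table that name no gene were left out; reads in no annotated exon came to 7.77% to 11.7% and ambiguous reads to 8.99% to 10.1%. Reads in genes numbered 26626539 to 28913623 a library, so that 3 reads, the floor for a count of 0, correspond to 0.104 to 0.113 CPM. Floors cover counting error only, while the intervals of fold changes come from the edgeR fit and include the spread between libraries.

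Groups came from the labels. Genes were filtered with filterByExpr (minimum count 10), normalised by TMM and tested in edgeR 4.0.16 (R 4.3.3) by the quasi-likelihood test over 17520 genes, with Benjamini-Hochberg adjustment and a threshold of 0.05. CPM values are TMM-adjusted, and per-kilobase values divide them by the union exon length. Single values were tested by exact permutation (scipy 1.17.1). The scripts were tested on simulated data. Alternatives were other scalings (DESeq2 size factors, upper quartile), filters (none, or 1 CPM in 3 libraries), DESeq2 1.42.0, limma-voom (limma 3.58.1), a replicate block, a 1.2-fold null, a length and GC offset, a covariate for reads outside annotated exons, and leaving out each library.

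Every member called, and uncalled members of 100 CPM or more, are given in each library; other members by means, ranges or counts. In the lists of neighbouring genes up to 4 called genes with the largest change are named, and HIF1A is added because the opening names it. Further genes of these lists are named only for their result with the covariate. The members and lists were chosen with earlier results of these data known.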

Additional observations from a re-analysis of the deposited data

How the results depend on the processing

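Against a 1.2-fold null, 758 of all tested genes were called higher and 698 lower, and 2 members higher and 8 lower. With the percentage of reads outside annotated exons as a covariate, 858 genes were called higher and 1262 lower, 2 members higher and 12 lower, and the median of the members was -0.16. The covariate turned the log2 fold changes of PFKFB2 (-0.0606), PFKFB4 (0.0939), PGAM1 (0.0299), ENO2 (0.0056), ENO3 (0.0172) and PDK3 (-0.35), none of them called at first. Other carbohydrate genes numbered 2 higher and 5 lower under the 1.2-fold null and 5 higher with the covariate. Genes of pyruvate entry and the citrate cycle numbered 0 higher and 2 lower under the 1.2-fold null, 4 lower with the covariate, and 2 higher under upper-quartile scaling, the 1 CPM filter, limma-voom, the replicate block and the length and GC offset. Regulators numbered 3 higher and 1 lower under the 1.2-fold null. From raw counts not divided by length, the share differences were -8.58 percentage points for SLC16A1, -2.84 for PFKP and -4.07 for ENO1. Leaving out each library in turn gave 1650.0 to 3218 genes higher and 1817 to 3562 lower, 2 to 6 members higher and 16 to 21 lower, 3 to 8 other carbohydrate genes higher, 1 to 3 genes of pyruvate entry and the citrate cycle higher and 8 to 17 lower, and 2 to 5 regulators lower. The lowest counts over all genes came without shSATB1 replicate 3 (1650.0 higher) and without shSATB1 replicate 1 (1817 lower). PFKM turned to -0.0221 without shSATB1 replicate 1 (-0.0221 to 0.182 over the libraries left out), PFKFB4 to 0.00026 without shCtrl replicate 3 (-0.1003 to 0.00026), and the share difference of LDHA to -0.0079 percentage points without shCtrl replicate 1, over a range of -0.0079 to 0.0414. The cause of these changes was not tested. The LDHA share was taken against LDHB, whose counts are limited by shared exons, so it does not measure the make-up of that pair. Deviations of same-numbered libraries correlated weakly (0.0798, 0.0712 and 0.0032). For shSATB1 replicates 1 and 2 the same-numbered shCtrl library gave the highest value, while shSATB1 replicate 3 correlated best with shCtrl replicate 2 (0.0126). Whether the numbers pair the libraries cannot be told from these values. With the replicate block, 2783 genes were called higher and 3120 lower, and the same 4 and 20 members were called. With the length and GC offset, 5 members were called higher and 21 lower. LDHB lost its call there (adjusted p = 0.0503), ALDOC was newly called higher (0.00940), and PFKL (0.00276) and SLC16A1 (0.0342) newly lower. A count of 0 allows up to 0.104 to 0.113 CPM in a library.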
